A study of Mus musculus with 4 samples.

Results

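Transcripts of 9 genes for enzymes that make superoxide, hydrogen peroxide or nitric oxide were followed in 4 RNA-seq libraries of mouse prostate cells grown in culture. The genes are Nox4, Nox1, Cyba, Cybb, Ncf1, Duox1, Xdh, Nos2 and Nos3, chosen by name for their function, and all 9 were found among the 56748 gene IDs of the count table. The cells came from prostates of male C57BL/6 mice of 8 to 10 weeks, and the labels call them fibroblasts. There was 1 library for each condition, and the labels name the conditions BuOE and radiation, PBS and radiation, BuOE, and PBS (phosphate-buffered saline). Irradiated animals had received 37.5 Gy to the pelvis, with the rest of the body shielded, in fractions of 7.5 Gy over 5 days before the cells were taken. BuOE is read here as the manganese porphyrin of the series title, BMX-001, which mimics superoxide dismutase. The title speaks of giving it weeks after radiation, but its dose and whether animals or cultures received it are not given in the labels of these libraries. Each condition is 1 library with no replicate, and whether cells of several animals were pooled is not given, so every ratio compares 2 libraries and no ratio carries an error for animals or cultures.

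NADPH oxidases carry electrons from NADPH across a membrane to oxygen. Cybb is the catalytic subunit of the phagocyte enzyme, Cyba is the small membrane subunit that stabilises it and also pairs with the products of Nox1 and Nox4, and Ncf1 is a cytosolic organiser that is brought to the membrane on activation. Nox4 encodes an enzyme that is active without such organisers and releases mainly hydrogen peroxide; in fibroblasts it is known as a gene induced by TGF-beta. Xdh encodes xanthine oxidoreductase, the last enzyme of purine breakdown, which in its oxidase form also yields superoxide. Nitric oxide synthases make nitric oxide from arginine, with Nos3 best known from endothelium, Nos2 as the form induced by cytokines in macrophages and other cells, and Nos1 from neurons. Superoxide and nitric oxide react with each other, and superoxide dismutases remove superoxide.

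The libraries held 25.0 M counts (BuOE and radiation), 35.9 M (PBS and radiation), 28.9 M (BuOE) and 29.7 M (PBS). All 12 fibroblast markers passed a mean of 1 CPM (counts scaled to the library total). So did all 12 endothelial, all 8 smooth muscle, all 13 macrophage, all 12 epithelial and all 12 neuronal markers. Transcripts of several cell types were thus present beside those of fibroblasts. Summed fibroblast markers lay between 6835 and 11424 CPM, epithelial markers between 3902 and 6087 CPM, and smooth muscle markers between 958 and 1709 CPM. Endothelial markers lay between 681 and 1198 CPM, macrophage markers between 405 and 620 CPM, and neuronal markers between 123 and 662 CPM. The most abundant of these lists, in this order, were Vim and Col3a1, Krt8 and Cldn4, Acta2 and Tagln, Cdh5 and Eng, Lyz2 and Cd68, and Uchl1 and Tubb3. The PBS library stood apart by adipocyte markers, led by Fabp4 and Plin4, that summed to 316 CPM, against 51.4 to 92.6 CPM in the other libraries, and by the lowest sums of endothelial and Schwann cell markers. In the BuOE and radiation library, mitochondrially encoded mRNAs took 2.64% of the counts, against 0.403% to 0.864% elsewhere. In bulk RNA, fewer cells of a type and less RNA per cell cannot be told apart. Levels below are CPM scaled with TMM factors; ratios are log2 ratios of such levels, and the range after each is a 95% interval of the counts, which covers counting error only.

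Transcript levels per kb of exon, the scale on which different genes can be compared, spanned several orders. Cyba was the highest, with a mean of 55.1 CPM per kb over the 4 libraries, above 94.8% of the 14365 genes that reached 1 CPM on average. Xdh followed at 25.0, then Nos3 at 3.97, Cybb at 3.79, Nos2 at 2.22, Ncf1 at 1.94 and Nox4 at 0.640 CPM per kb. The range over libraries of Nos3 overlapped that of Cybb, that of Cybb overlapped that of Nos2 and that of Nos2 overlapped that of Ncf1, so the order of these neighbours is not settled, while Cyba, Xdh and Nox4 did not overlap their neighbours. Duox1 (0.144 CPM per kb) and Nox1 (0.0151 CPM per kb) had means below 1 CPM and are described by their counts. The other 7 members were above 1 CPM in every library, so none passed through a single high library.

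**Figure D1:**
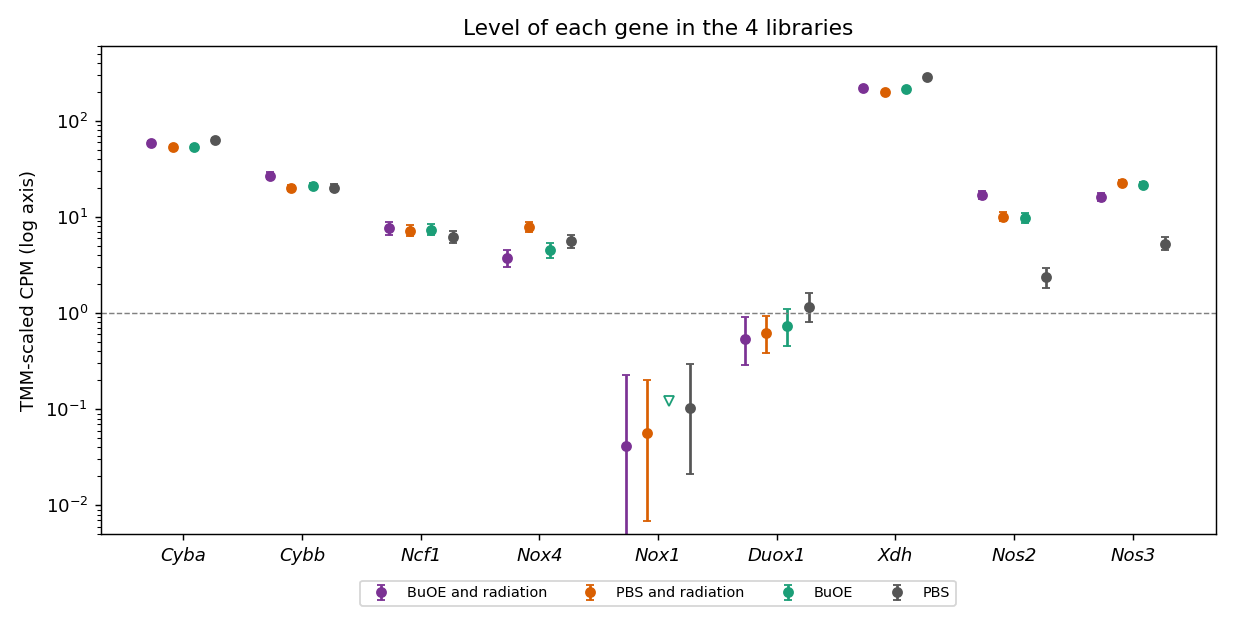
TMM-scaled CPM (log axis) of each gene in the BuOE and radiation, PBS and radiation, BuOE and PBS libraries, with 95% Poisson intervals as bars; the open triangle is the upper limit of a count of 0 and the dashed line is 1 CPM. Nos2 and Nos3 are lowest in the PBS library by a wide margin, at 2.35 and 5.28 CPM, while Cyba, Cybb and Ncf1 vary little.

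The promoters of Cyba, Cybb and Nox4 are shown because these are the catalytic and membrane subunits that the oxidase results below turn on. The windows run from 250 bases before to 50 bases after the gene start, as RefSeq gives them on GRCm38.p6, 5′ to 3′ on the gene's strand. RefSeq entries were matched for 6 of the 9 members by symbol. The last 50 bases of the Cybb and Nox4 windows were found in a GENCODE transcript and those of the Cyba window were not, so the Cyba start, and positions counted from it, are less certain. Capitals mark matches, on either strand (the reverse complement is what is printed for the minus strand), to any of 5 motifs, and no printed match overlaps another. The GC box was searched as GGGCGG. The core bound by the myeloid factor PU.1 was searched as GAGGAA. The CCAAT box was searched by the letters of its name, the AP-1 site as TGACTCA and the TATA box as TATAAA.
Cyba promoter, chr8:122432891-122433190, minus strand: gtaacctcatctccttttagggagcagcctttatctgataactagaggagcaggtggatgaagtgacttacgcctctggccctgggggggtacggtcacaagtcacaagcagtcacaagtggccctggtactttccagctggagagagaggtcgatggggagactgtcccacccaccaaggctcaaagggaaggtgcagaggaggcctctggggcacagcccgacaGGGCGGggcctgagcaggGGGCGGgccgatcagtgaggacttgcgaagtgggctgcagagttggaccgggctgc
Cybb promoter, chrX:9469275-9469574, minus strand: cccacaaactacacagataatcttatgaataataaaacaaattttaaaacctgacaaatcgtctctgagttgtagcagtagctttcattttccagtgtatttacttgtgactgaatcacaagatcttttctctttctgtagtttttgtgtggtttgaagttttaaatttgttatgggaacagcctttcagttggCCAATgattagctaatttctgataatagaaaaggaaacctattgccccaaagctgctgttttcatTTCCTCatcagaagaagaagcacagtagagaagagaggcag
Nox4 promoter, chr7:87246399-87246698, plus strand: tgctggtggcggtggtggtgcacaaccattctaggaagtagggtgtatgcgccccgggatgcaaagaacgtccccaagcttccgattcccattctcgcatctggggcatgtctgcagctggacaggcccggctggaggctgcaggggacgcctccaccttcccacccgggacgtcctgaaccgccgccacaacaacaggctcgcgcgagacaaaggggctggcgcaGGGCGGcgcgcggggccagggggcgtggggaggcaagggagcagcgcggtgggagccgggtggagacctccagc
Cyba held GC boxes at window positions 227 and 245, and Nox4 held one at position 227. Cybb held no GC box, but a PU.1 core on its minus strand at position 260 and a CCAAT box at position 195. Of 32851 such windows in the RefSeq table, 35.7% held a GC box, 28.3% a PU.1 core, 37.4% a CCAAT box, 5.20% an AP-1 site and 13.6% a TATA box. GC content was 60.7% in Cyba, 35.3% in Cybb and 68.3% in Nox4. These letters describe the windows and say nothing of binding in these cells.

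The phagocyte oxidase genes differed little between libraries. Cyba stood at 58.9 CPM in the BuOE and radiation library, 53.2 in PBS and radiation, 53.6 in BuOE and 63.4 in PBS. Its highest level was 1.19 times its lowest, with PBS the highest library. Cybb stood at 26.9, 20.1, 21.0 and 20.1 CPM in the same order of libraries. Only the BuOE and radiation library was apart for Cybb, by 0.35 (0.19 to 0.51) over BuOE and by 0.42 (0.26 to 0.57) over PBS and radiation. Ncf1 stood at 7.61, 7.21, 7.39 and 6.20 CPM, and the intervals of all 4 of its ratios included 0; 11.1% of its exon length overlaps Gtf2ird2 on the opposite strand, and strand use in counting is not given, so its level is uncertain. None of the 3 genes reached 2-fold in any comparison. Per kb, Cyba exceeded Cybb by 12.3 times (11.2 to 13.5) in BuOE and radiation, 14.8 times in PBS and radiation, 14.2 times in BuOE and 17.6 times (16.1 to 19.4) in PBS.

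As a sum, macrophage markers were also highest in the BuOE and radiation library. Taken singly, 13 of 13 were above their PBS and radiation level (median ratio 0.74), where 43.8% of all genes were. Against the BuOE library 6 of 13 were higher (median ratio -0.02), where 46.2% of all genes were. Summed over 13 markers, macrophage markers stood at 620 CPM in BuOE and radiation, 405 in PBS and radiation, 528 in BuOE and 448 in PBS. Set against that sum, Cybb amounted to 43.3, 49.6, 39.8 and 44.8 CPM per 1000 marker CPM in the same order, a spread of 1.25 times between highest and lowest. For Ncf1 the corresponding values were 12.3, 17.8, 14.0 and 13.8. Of 8 neutrophil markers, 2 passed a mean of 1 CPM and their whole list summed to at most 6.93 CPM in a library, with Elane at 0 counts in all but the BuOE library. The part of macrophages in the Cybb level was not tested.

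Among the partners of these enzymes, most levels were also close between libraries. Ncf4, a cytosolic subunit of the phagocyte enzyme, stood at 2.30 CPM in BuOE and radiation, 1.85 in PBS and radiation, 2.84 in BuOE and 1.70 in PBS. Rac1, the GTPase that completes the complex, lay between 367 and 392 CPM, although 51.4% of its exon length overlaps Daglb on the opposite strand. Of 16 partners and relatives listed, 12 had a mean of at least 1 CPM; their median ratio was -0.17 for PBS and radiation over PBS, -0.20 for BuOE and radiation over BuOE, 0.0031 for BuOE over PBS and 0.01 for BuOE and radiation over PBS and radiation. Over all 14365 genes the medians were 0.0036, -0.03, -0.01 and -0.07. The scaffold genes of invadopodia Sh3pxd2b (336 CPM in BuOE and radiation against 552 CPM in BuOE) and Sh3pxd2a (288 against 457 CPM in the same libraries) had their lowest levels in the BuOE and radiation library.

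Nox4 was the only one of the 4 measured oxidase members past 2-fold, in 1 comparison. It stood at 3.70 CPM in BuOE and radiation (90 counts), 7.89 in PBS and radiation (281 counts), 4.49 in BuOE (136 counts) and 5.62 in PBS (165 counts). The irradiated PBS library was the highest and the irradiated BuOE library the lowest. The ratio of BuOE and radiation to PBS and radiation was -1.08 (-1.45 to -0.74), which with upper-quartile scaling was -0.94 and so no longer past 2-fold. In that comparison 1 of the 7 measured members was at least 2-fold lower, where 5.92% of all genes were, and 0 were at least 2-fold higher, where 3.81% of genes were; in either direction the share of all genes was 9.74%. Between PBS and radiation and PBS the Nox4 ratio was 0.48 (0.21 to 0.78). It was -0.27 (-0.68 to 0.12) for BuOE and radiation over BuOE and -0.32 (-0.66 to 0.01) for BuOE over PBS, both with intervals that include 0.

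Summed fibroblast markers had the same order of libraries as Nox4, though single markers did not all follow it. Pdgfra and Dcn were highest in BuOE and radiation, where Nox4 was lowest, and Vim was highest in PBS. Between the irradiated libraries 2 of 12 markers were higher with BuOE and 7 were at least 2-fold lower, where 43.8% and 5.92% of all genes were. The sum was 6835 CPM in BuOE and radiation, 11424 in PBS and radiation, 7916 in BuOE and 8815 in PBS. Nox4 was 0.542, 0.690, 0.567 and 0.638 CPM per 1000 marker CPM in the same order, so per unit of fibroblast markers its highest level was 1.27 times its lowest, against 2.13 times for its CPM; their part in the Nox4 ratios was not tested. The 3 genes most like Nox4 over the 4 libraries, among 9694 annotated genes averaging 10 CPM or more, were Lrrk2, Spp1 (osteopontin) and Col5a2 (a fibrillar collagen chain), with root mean square differences of 0.0566, 0.0675 and 0.0838 on the centred log2 scale. Col5a2 stood at 883 CPM in BuOE and radiation, 1857 in PBS and radiation, 1221 in BuOE and 1443 in PBS. With 4 points, many genes can share a pattern, and the likeness is a description.

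Together with Nox4, Cybb made up most of the NADPH oxidase catalytic transcripts. Per kb, the family summed to 5.22 in BuOE and radiation, 4.58 in PBS and radiation, 4.33 in BuOE and 4.39 CPM per kb in PBS. Cybb accounted for 88.6%, 75.6%, 83.6% and 78.7% of that sum and Nox4 for 8.37%, 20.3%, 12.2% and 15.1%. Cybb exceeded Nox4 per kb by 10.6 times (8.48 to 13.3) in BuOE and radiation and by 3.72 times (3.24 to 4.29) in PBS and radiation, intervals that do not overlap. With the length of the longest transcript these ratios were 5.99 and 2.11, and the Nox4 share was 14.0% in BuOE and radiation, 31.2% in PBS and radiation, 19.9% in BuOE and 24.1% in PBS.

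The remaining oxidases were near the detection limit. Nox1 had 1 count in BuOE and radiation, 2 in PBS and radiation, 0 in BuOE and 3 in PBS. No count exceeded the floor of 3, equal to 0.123, 0.0842, 0.0990 and 0.102 CPM in those libraries, so no ratio is given and no difference was detectable at this depth. Nox3, the oxidase of the inner ear, had no count in any library. Duox1, which makes hydrogen peroxide at epithelial surfaces, had 13 counts (0.535 CPM) in BuOE and radiation, 22 (0.618 CPM) in PBS and radiation, 22 (0.726 CPM) in BuOE and 34 (1.16 CPM) in PBS. The PBS library was the highest, and the ratio of PBS and radiation to PBS was -0.84 (-1.75 to -0.09), the single one of the 4 Duox1 intervals without 0. Its sister Duox2 had 4 to 13 counts, and the maturation factor Duoxa1 had 34 counts in each library other than BuOE, where it had 50. The sum of epithelial markers was 6087 CPM in BuOE and radiation, 3902 in PBS and radiation, 5648 in BuOE and 4565 in PBS, so Duox1 was not highest where they were. With so few Duox1 counts, the part of epithelial cells in its level was not tested.

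Of the partners of Nox1, the organiser Noxo1 stood at 1.98 CPM in BuOE and radiation, 2.27 in PBS and radiation, 3.40 in BuOE and 5.55 in PBS. Its ratio of PBS and radiation to PBS, -1.26 (-1.69 to -0.89), made it the single 1 of 12 measured partners past 2-fold in any comparison. Of all genes, 6.63% were past 2-fold in either direction there and 7.21% for BuOE and radiation over BuOE. The shares were 12.9% for BuOE over PBS and 9.74% for BuOE and radiation over PBS and radiation. However, 70.4% of the Noxo1 exon length overlaps Tbl3 on the opposite strand, and Tbl3 stood at 30.4, 44.8, 35.9 and 57.6 CPM, so reads of the 2 genes may not be told apart. Noxa1, the activator of the same complex, had 10 to 35 counts in a library.

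Xdh was abundant in all libraries. It stood at 222 CPM in BuOE and radiation (5385 counts), 200.1 in PBS and radiation (7128 counts), 212 in BuOE (6436 counts) and 285 in PBS (8376 counts). The PBS library was the highest and the other libraries differed by at most 1.11-fold. Its ratio was -0.51 (-0.56 to -0.47) for PBS and radiation over PBS and -0.43 (-0.47 to -0.38) for BuOE over PBS; these share the PBS library. For BuOE and radiation over BuOE it was 0.06 (0.01 to 0.11), which turned to -0.05 with library size alone, and for BuOE and radiation over PBS and radiation it was 0.15 (0.10 to 0.20). For PBS and radiation over PBS, 666 of 14365 genes had a ratio as low as that of Xdh or lower. Adipocyte markers were also highest in the PBS library, but differed far more: per 1000 CPM of them, Xdh amounted to 2393 CPM in BuOE and radiation, 2526 in PBS and radiation, 4131 in BuOE and 904 in PBS, a spread of 4.57 times against 1.43 times for its CPM. Relative to epithelial markers the spread of Xdh was 1.72 times and relative to endothelial markers 2.51 times. The part of these cells in the Xdh level was not tested. The related oxidase gene Aox1 stood at 13.2, 13.8, 17.0 and 18.3 CPM in BuOE and radiation, PBS and radiation, BuOE and PBS, and per kb Xdh exceeded it by 11.8 to 15.9 times.

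**Figure D2:**
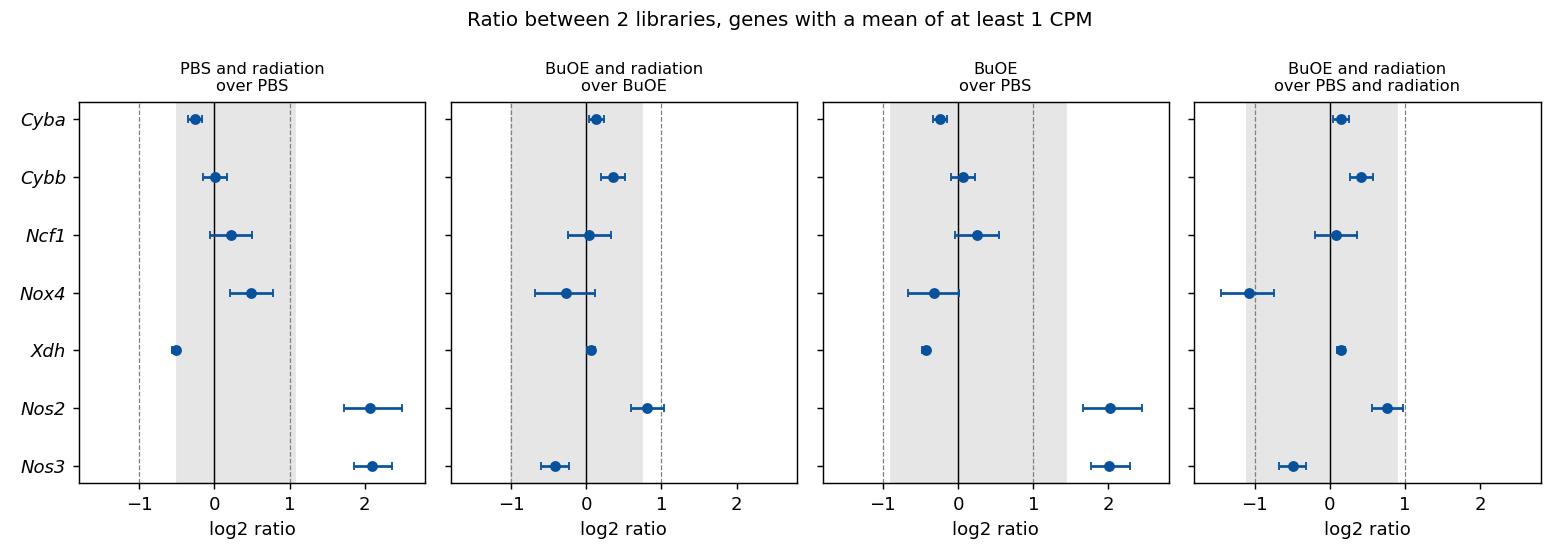
Log2 ratio (x axis) of the 7 members that averaged 1 CPM or more, in the comparisons named above each panel, with 95% counting intervals as bars; grey spans the 5th to 95th percentile of all 14365 genes and dashed lines mark 2-fold. Nos2 and Nos3 lie near 2 in both comparisons against the PBS library and on opposite sides of 0 in the other comparisons, where Nox4 also passes -1 in the last panel.

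The nitric oxide synthases gave the largest differences of the measured members. Nos2 stood at 17.1 CPM in BuOE and radiation (415 counts), 10.1 in PBS and radiation (359 counts), 9.73 in BuOE (295 counts) and 2.35 in PBS (69 counts). Nos3 stood at 16.1 CPM in BuOE and radiation (392 counts), 22.8 in PBS and radiation (811 counts), 21.5 in BuOE (651 counts) and 5.28 in PBS (155 counts). For both, the PBS library was the lowest and its counting interval was apart from all others, while PBS and radiation and BuOE were close to each other.

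With radiation in the PBS arm, both were higher, with log2 ratios of 2.07 (1.73 to 2.49) for Nos2 and 2.09 (1.86 to 2.37) for Nos3. They were the 2 of 7 measured members at least 2-fold higher there, where 5.62% of all genes were, and 0 were at least 2-fold lower, where 1.02% of genes were; 6.63% of genes were past 2-fold in either direction. Only 220 genes had a ratio as high as that of Nos2 and 215 one as high as that of Nos3. The median ratio of the 7 members was 0.22, against 0.0036 over all genes.

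BuOE over PBS gave nearly the same values, 4.05-fold for Nos2 (2.02, 1.67 to 2.45) and 4.03-fold for Nos3 (2.01, 1.77 to 2.29). Again these were the 2 of 7 members at least 2-fold higher, where 8.72% of genes were, and 0 were at least 2-fold lower, where 4.23% were (12.9% in either direction). Both comparisons have the PBS library as denominator, so they do not count as separate evidence, and the differences rest on that 1 library. The median of the 7 members was 0.07, against -0.01 over all genes.

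Comparisons without the PBS library gave smaller differences and parted the synthases. With radiation in the BuOE arm, Nos2 was 1.75-fold higher (0.81, 0.59 to 1.03), whereas Nos3 was lower by a ratio of -0.41 (-0.60 to -0.23). None of the 7 members was past 2-fold there, against 7.21% of genes in either direction, 2.27% higher and 4.94% lower, and 590 genes had a ratio as high as that of Nos2. For BuOE and radiation over PBS and radiation, Nos2 was 1.69-fold higher (0.76, 0.55 to 0.97) and Nos3 had a ratio of -0.50 (-0.67 to -0.32). The medians of the 7 members were 0.06 and 0.15 in these comparisons, against -0.03 and -0.07 over all genes. All of these synthase ratios kept their sign under each scaling, filter and prior count tried.

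Within a library, the 2 genes kept a steady proportion except in one. Per kb, Nos3 stood at 1.01 times Nos2 (0.876 to 1.16) in BuOE and radiation, against 2.41 times (2.13 to 2.74) in PBS and radiation, 2.36 times (2.05 to 2.71) in BuOE and 2.40 times (1.79 to 3.23) in PBS. The proportion in the BuOE and radiation library was thus outside the counting intervals of the rest. Since both genes are read from the same library, this proportion does not depend on the scaling.

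Nos1, the neuronal synthase, is no member of the set but dominated the family in 1 library. It stood at 3.09 CPM in BuOE and radiation, 17.0 in PBS and radiation, 150.3 in BuOE and 3.58 in PBS, and its ratio was 2.23 (1.95 to 2.56) for PBS and radiation over PBS and -5.58 (-5.96 to -5.28) for BuOE and radiation over BuOE. Per kb the synthases summed to 8.05 in BuOE and radiation, 9.32 in PBS and radiation, 20.9 in BuOE and 2.13 CPM per kb in PBS. Nos1 took 3.44%, 16.3%, 64.6% and 15.0% of that sum, Nos3 48.5%, 59.1%, 24.9% and 60.0%, and Nos2 48.1%, 24.5%, 10.6% and 25.0%. Summed neuronal markers stood at 123, 249, 662 and 188 CPM in the same order. Per 1000 CPM of these markers, Nos1 amounted to 25.1, 68.1, 227 and 19.0 CPM. That is a spread of 11.9 times, against 48.7 times for its CPM. Of the 12 markers, 9 were at least 2-fold higher in BuOE than in PBS, where 8.72% of all genes were. The part of neurons in the Nos1 level was not tested.

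**Figure D3:**
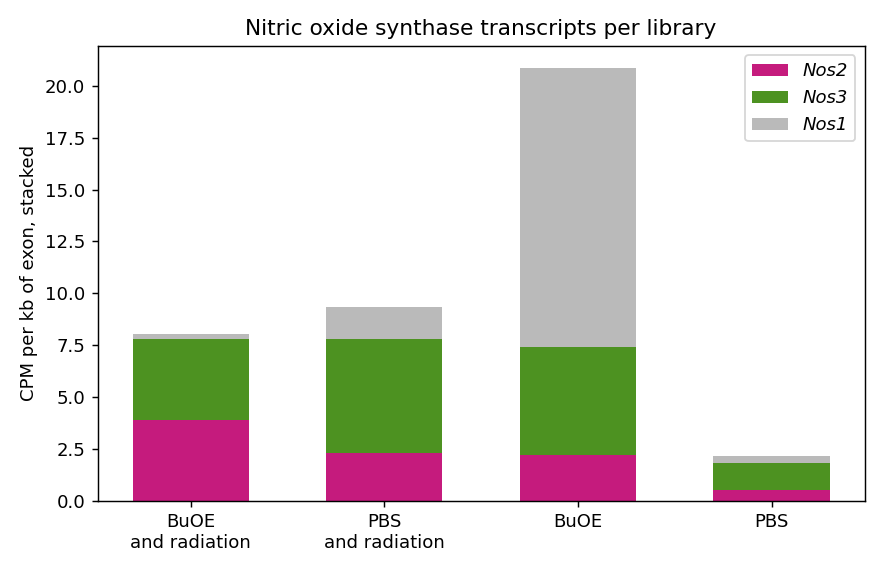
Stacked CPM per kb of exon (y axis) of Nos2, Nos3 and Nos1 in the BuOE and radiation, PBS and radiation, BuOE and PBS libraries, 1 bar per library with no error. The PBS bar is the shortest at 2.13 and the BuOE bar the tallest at 20.9 CPM per kb, most of it Nos1.

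Summed endothelial markers were, like Nos3, lowest in PBS and highest in PBS and radiation, but differed less. From BuOE to BuOE and radiation the sum rose (median ratio of the 12 markers 0.01), while Nos3 was lower (-0.41). The 12 markers summed to 1077 CPM in BuOE and radiation, 1198 in PBS and radiation, 975 in BuOE and 681 in PBS. All 12 were higher in PBS and radiation than in PBS, where 50.4% of all genes were. Of them, 7 were at least 2-fold higher, where 5.62% of all genes were. Per 1000 marker CPM, Nos3 amounted to 15.0, 19.0, 22.0 and 7.75 CPM in the same order, so relative to this sum it was still lowest in the PBS library, with a spread of 2.84 times against 4.31 times for its CPM. Among the genes most like Nos3 over the libraries were Thsd4 and Kit (a receptor of mast cells, melanocytes and pacemaker cells), with differences of 0.0710 and 0.141. Schwann cell markers had sums of 155 CPM in BuOE and radiation, 192 in PBS and radiation, 269 in BuOE and 86.3 in PBS. In the annotation, 25.2% of the Nos3 exon length overlaps the antisense gene Gm15587, which had 0 to 4 counts in a library, and 7.12% overlaps Atg9b, which stood at 12.4, 3.65, 5.64 and 1.91 CPM. The part of endothelial cells in the Nos3 difference was not tested.

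Nos2 was lowest in the PBS library relative to macrophage and epithelial markers too. Per 1000 CPM of macrophage markers it amounted to 27.5 CPM in BuOE and radiation, 24.9 in PBS and radiation, 18.4 in BuOE and 5.24 in PBS, and per 1000 CPM of epithelial markers to 2.81, 2.58, 1.72 and 0.515 CPM. The spread over libraries was 5.25 and 5.45 times on these scales and 7.27 times for its CPM, and the part of these cells was not tested. Most like Nos2 in pattern were Ankrd37, H2-Ab1 (a class II antigen-presenting chain) and Ctla2a, with differences of 0.153, 0.158 and 0.182. H2-Ab1 stood at 22.3 CPM in BuOE and radiation, 9.77 in PBS and radiation, 10.3 in BuOE and 2.69 in PBS.

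**Figure D4:**
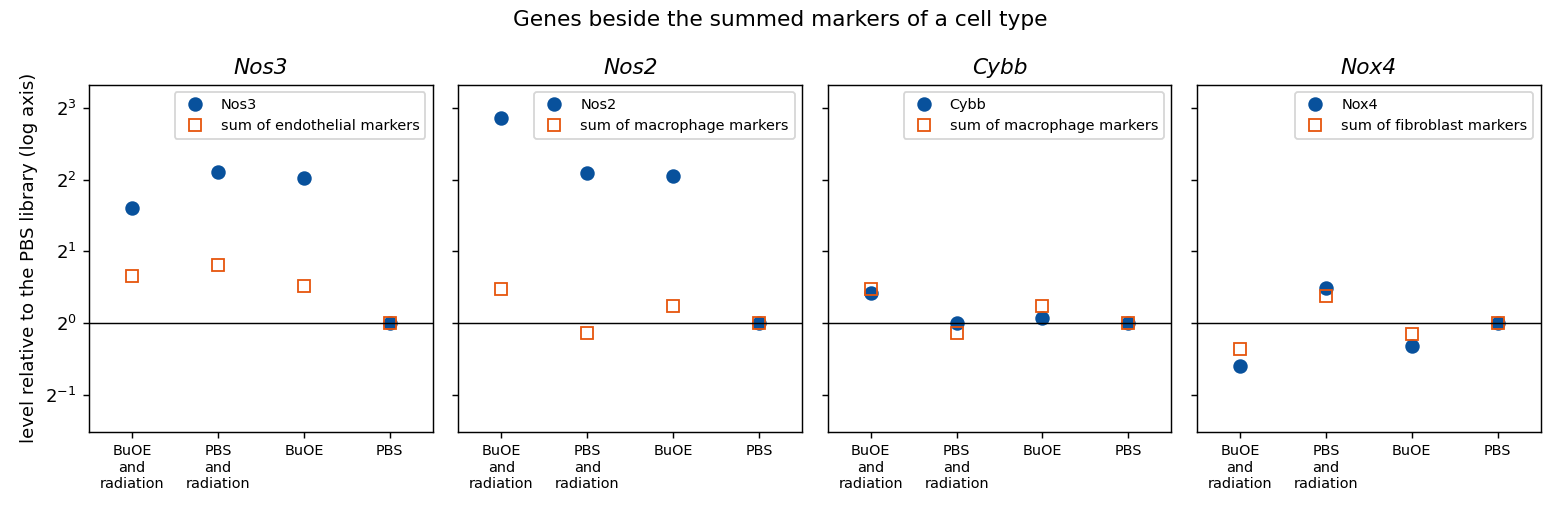
Level relative to the PBS library (log axis) of Nos3, Nos2, Cybb and Nox4 (filled circles) and of the summed markers of the named cell type (open squares), in the BuOE and radiation, PBS and radiation, BuOE and PBS libraries. Cybb and Nox4 lie close to their marker sums, while Nos3 and Nos2 lie above theirs in each library other than PBS.

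Genes that feed the synthases were mostly close between libraries. All 19 listed genes of nitric oxide synthesis and supply had a mean of at least 1 CPM, and 10 had a ratio above 0 for PBS and radiation over PBS, 7 for BuOE and radiation over BuOE, 9 for BuOE over PBS and 6 for BuOE and radiation over PBS and radiation. Over all genes 50.4%, 46.2%, 48.8% and 43.8% had a ratio above 0 in these comparisons, so the counts lie near the background. Gch1, the first enzyme for the cofactor tetrahydrobiopterin, stood at 17.9 CPM in BuOE and radiation, 15.0 in PBS and radiation, 18.5 in BuOE and 16.7 in PBS. Ass1, which regenerates arginine, was the most abundant of the list per kb and lay between 153 and 185 CPM, with its highest level in PBS. Prmt1, a methyltransferase whose products give rise to an inhibitor of the synthases, stood at 91.9, 137, 109 and 172 CPM in BuOE and radiation, PBS and radiation, BuOE and PBS.

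The arginases, which compete for arginine, were both lowest in the PBS library. Arg1 stood at 107 CPM in BuOE and radiation, 129 in PBS and radiation, 105 in BuOE and 73.8 in PBS, with a ratio of 0.80 (0.73 to 0.88) for PBS and radiation over PBS. Per kb it exceeded Nos2 by 12.4, 25.3, 21.3 and 62.2 times in the same order. Arg2 stood at 7.45, 5.42, 7.72 and 3.34 CPM, and its ratio of BuOE to PBS was 1.19 (0.86 to 1.57). Nostrin, an adaptor that takes up the endothelial synthase from the membrane, had a ratio of 1.59 (1.08 to 2.26) for PBS and radiation over PBS and of -1.21 (-1.84 to -0.70) for BuOE and radiation over PBS and radiation, from 32 to 122 counts. The adaptor of the neuronal synthase, Nos1ap, was highest in BuOE and radiation at 7.33 CPM, against 3.26 CPM in PBS and radiation (1.15, 0.82 to 1.52).

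Of 3 subunits of soluble guanylate cyclase, the receptor of nitric oxide, Gucy1a1 and Gucy1b1 were lowest in the PBS library and Gucy1a2 was not. Gucy1a1 stood at 7.57 CPM in BuOE and radiation, 9.15 in PBS and radiation, 16.9 in BuOE and 1.91 in PBS, and Gucy1b1 at 8.19, 11.4, 12.7 and 4.97 CPM. Gucy1a2 stood at 3.42, 8.03, 3.69 and 6.44 CPM in the same order, with a ratio of BuOE to PBS of -0.79 (-1.15 to -0.46). The ratios of Gucy1a1 and Gucy1b1 were 2.22 (1.85 to 2.70) and 1.19 (0.92 to 1.48) for PBS and radiation over PBS, and 3.10 (2.75 to 3.57) and 1.34 (1.08 to 1.64) for BuOE over PBS. They were the 2 of 11 genes of the receptor pathway at least 2-fold higher in each of these comparisons, where 5.62% and 8.72% of all genes were. Both comparisons have the PBS library as denominator, so they do not count as separate evidence. For BuOE and radiation over BuOE, 2 of 11 were at least 2-fold lower (Gucy1a1 at -1.15 and Cygb at -1.17), where 4.94% of all genes were. In that comparison 2 of 11 lay above 0, where 46.2% of all genes did, and the median was -0.48, against -0.03 over all genes. For BuOE and radiation over PBS and radiation, 0 of 11 lay above 0, where 43.8% of all genes did, and the median was -0.65, against -0.07 over all genes. There 3 of 11 were at least 2-fold lower (Gucy1a2, Pde1a and Cygb), where 5.92% of all genes were. The lowest there were Pde1a, a phosphodiesterase (-1.44, -1.64 to -1.26), and Cygb, a globin that consumes nitric oxide (-1.30, -1.46 to -1.14), which stood at 16.7 CPM in BuOE and radiation and 41.1 CPM in PBS and radiation. Vasp, a substrate of the downstream kinase, and Adh5, which removes nitrosoglutathione, did not reach 2-fold in any comparison. Fibroblast markers had a median of -1.09 between the same 2 libraries, with 7 of 12 at least 2-fold lower, and their part in these ratios was not tested.

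A fit that adds a radiation effect to a BuOE effect, the test used here between conditions, has 1 residual degree of freedom and takes the difference between the arms as error. By edgeR's quasi-likelihood test it called 0 of 14365 genes (0%) for radiation and 0 (0%) for BuOE after Benjamini-Hochberg adjustment, with 1076 and 2954 genes at an unadjusted p below 0.05. DESeq2 called 95 and 890 genes and limma-voom 0 and 0. Of the members, Nos2 had a radiation term of 1.44 (edgeR adjusted p = 0.663) and a BuOE term of 1.39 (edgeR adjusted p = 0.187), higher in both irradiated and both BuOE libraries than in their counterparts. Nos3 had terms of 0.83 (edgeR adjusted p = 0.765) and 0.74 (edgeR adjusted p = 0.593), and Nox4 a BuOE term of -0.71 (edgeR adjusted p = 0.329). None of the 7 measured members passed in any of the models tried, whose adjusted p-values for the Nos2 BuOE term ran between 0.0838 and 0.229. A p that misses the threshold in so small a design does not show that levels were alike.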

How the data were processed

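The authors deposited 1 table of raw read counts per Ensembl gene ID, 1 column a library, made with featureCounts on GRCm39 per the submitters' processing notes. Trim Galore (0.6.4), Salmon (1.4.0) and edgeR (4.2.2) are listed there with no role. Strand and multi-mapping settings are not given in the sources used here. Symbols and exon lengths were joined by ID from GENCODE M21 (GRCm38), whose coordinates served only to compute exon overlaps between genes and are not printed, and 4623 of 56748 IDs had no symbol there.

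Counts were scaled with TMM (edgeR 4.0.16, R 4.3.3; factors 0.972 to 1.05). A gene was kept if it averaged 1 CPM or more (14365), and ratios used a prior count of 2. Called means at least 2-fold; intervals are exact binomial intervals of 2 counts or Poisson intervals of 1 count at 95%, and with the floor of 3 counts they cover counting error only. The additive model was also fitted with DESeq2 (1.42.0) and limma-voom (limma 3.58.1) with calls at an adjusted p of 0.05. TMM scaling, the ratio and interval of PBS and radiation over PBS, and the edgeR radiation term were also run on simulated counts. These counts were drawn around the mean levels of the real libraries.

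The members, lists and tests were chosen with earlier results of these data known. Named beside the members are the most abundant and most changed genes of 3 related lists, a few fixed partners, the 2 most abundant markers of lists, and the 3 genes nearest in pattern to each member whose log2 levels span at least 1. Some genes that these rules pick are not reported here.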

Additional observations from a re-analysis of the deposited data

Results flagged for a closer look

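For 3 members the radiation ratios of the BuOE and PBS arms lay on opposite sides of 0 with counting intervals that exclude 0, each arm being 1 pair of libraries. Nos3 was -0.41 in the BuOE arm and 2.09 in the PBS arm, a difference of -2.51. Xdh was 0.06 in the BuOE arm and -0.51 in the PBS arm, a difference of 0.57, although the first value is -0.05 when scaled by library size alone. Cyba was 0.14 in the BuOE arm and -0.25 in the PBS arm, a difference of 0.39. Its BuOE arm value depends on the scaling, at 0.02 with library size alone and 0.25 with upper-quartile factors. Both lie outside its counting interval of 0.03 to 0.24, and the lower one is close to 0. None of these differences was tested, since 4 libraries leave no replicate for it.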

How the results depend on the processing

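Of the 28 member ratios (7 genes in 4 comparisons), 25 kept their sign under DESeq2 size factors, library size alone, upper-quartile factors, no filter, a mean of at least 10 CPM (for genes that reach it) and a prior count of 0.5. The exceptions were near 0: Cybb for PBS and radiation over PBS (0.0023, as low as -0.03), and Ncf1 and Xdh for BuOE and radiation over BuOE (-0.07 and -0.05 with library size alone). One 2-fold call changed, that of Nox4 between the irradiated libraries (-0.94 with upper-quartile factors). Counts of 2-fold genes moved with the number of genes tested. Without a filter (31783 genes), 2330 were higher and 1404 lower for PBS and radiation over PBS, 2171 and 2009 for BuOE and radiation over BuOE, 2850 and 2373 for BuOE over PBS, and 2343 and 2241 for BuOE and radiation over PBS and radiation. From 10 CPM (9870 genes) they were 245 and 43, 118 and 180, 433 and 339, and 245 and 347. At the main settings they were 807 and 146, 326 and 709, 1253 and 607, and 548 and 851. Scaling by library size alone put the median over all genes at -0.15 for BuOE and radiation over BuOE, where 232 genes were higher and 855 lower, and with upper-quartile factors these were 467 and 591. Between the irradiated libraries upper-quartile factors gave 767 higher and 670 lower.

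The additive radiation term called 95 genes with DESeq2, and the additive BuOE term 890 with DESeq2 and 283 with edgeR without a filter, where the main test called 0; none of the 7 measured members was among them. Lengths of the longest transcript in place of the exon union raised the per kb level of Nox4 to 1.38, Cyba to 77.0, Cybb to 4.64, Ncf1 to 2.46 and Xdh to 29.6 CPM per kb, against 3.97 for Nos3 and 2.34 for Nos2, so that Cybb then lay above Nos3 and Ncf1 above Nos2. No paired analysis was possible because each condition has 1 library, and for the same reason no replicate could be left out. Depth limits Nox1, Duox1, Duox2 and Noxa1, whose counts reach at most 35 in a library.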
